A study of Mus musculus with 8 samples.

Results

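The 6 Gata genes of the mouse, Gata1 to Gata6, were examined as places of SMAD4 binding in early limb buds. Members were all SMAD4 peaks whose centre lies within 100 kb of the 5′ end of one of these genes, which gave 2 of the 2073 peaks of the E9.5 list and 6 of the 6185 peaks of the E10.5 list. SMAD4 chromatin immunoprecipitation with sequencing (ChIP-seq) was performed on NMRI mouse embryos that carry the Smad4Flag allele on both chromosomes (Smad4 3xF/3xF), so that the endogenous protein bears a 3xFLAG epitope and was precipitated with the M2 anti-FLAG antibody. The groups are E9.5 SMAD4 ChIP, E10.5 SMAD4 ChIP and an input DNA group for each stage, with 2 samples in each of the 4 groups and 8 samples in all. The tissue at E9.5 was forelimb buds with trunk attached, pooled from about 80 embryos per replicate and dated to E9.75 by the protocol, whereas at E10.5 it was fore- and hindlimb buds pooled from about 100 embryos per replicate. The source label names forelimb buds for all samples. Stage and tissue therefore change together and cannot be told apart, and since the lists hold no expression values the labelled tissue could not be checked against marker genes. The authors merged the replicates of a stage into 1 peak list, so that there is no spread between replicates, the sequencing depth is unknown, and no test between the stages was possible. All counts below are descriptions of the lists, and a stretch of genome without a peak may still bind SMAD4 below the level of detection.

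GATA factors are transcription factors with a pair of zinc fingers that recognise a short sequence with GATA at its core. Gata1, Gata2 and Gata3 are best known from blood, endothelium, the nervous system and the urogenital tract, while Gata4, Gata5 and Gata6 act in the heart, the foregut and other endoderm and mesoderm. BMP signalling acts upstream of several of them in the embryo, and SMAD4 is the common partner that forms complexes with receptor-activated SMADs on DNA. In the limb bud, Gata6 is known as a regulator of anterior identity that restrains Shh.

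Peaks were found at 3 of the 6 genes, Gata4, Gata2 and Gata5, and at none of Gata1, Gata3 and Gata6. The E9.5 list had peaks at 1 gene, Gata4, against 20.5% of all 22380 protein-coding genes with an E9.5 peak in the same window. The E10.5 list had peaks at 3 genes, against 52.9% of protein-coding genes. Both shares are near the background, and the family does not stand out by the number of genes with a peak. Gata4 was the single gene with peaks of both stages within 100 kb, a pattern held by 14.6% of protein-coding genes. This pattern depends on the setting. Gata4 had 0 E10.5 peaks at a score of 100 or more, and also with the E10.5 list cut to the length of the E9.5 list. In a window of 200 kb, Gata2 and Gata5 had peaks of both stages as well. Pairs of peaks from different stages with at least 1 bp in common numbered 0 at the 6 genes. Of all protein-coding genes 5.51% had such a pair, so that 0 among 6 genes is near the background as well. Over the whole genome, such overlap was found for 18.7% of peaks in the earlier list and 6.26% in the later one. In the earlier list the median number of peaks was 0 both per Gata gene and per protein-coding gene, and in the later list it was 0.5 and 1.00.

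**Figure D1:**
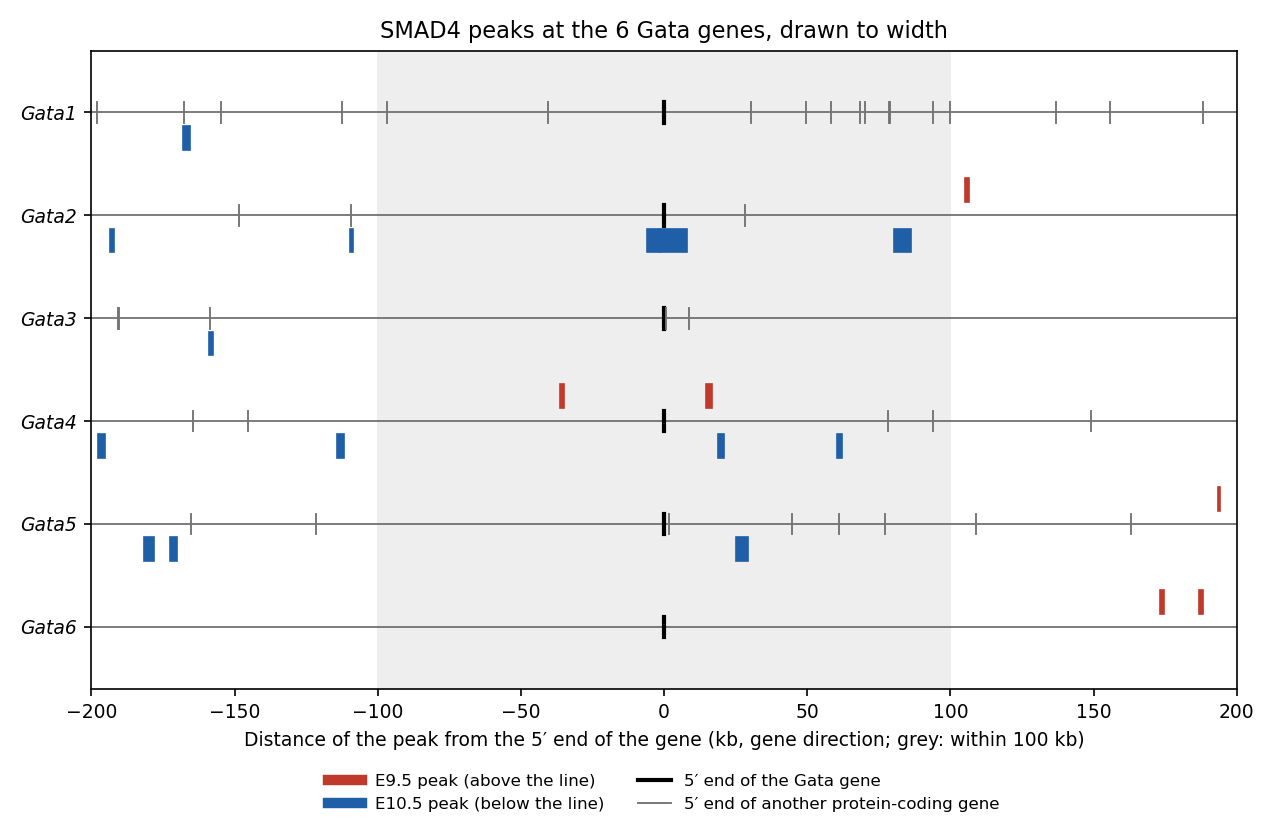
SMAD4 peaks from 200 kb upstream to 200 kb downstream of the 5′ end of each Gata gene (horizontal axis in kb, gene direction), with E9.5 peaks above and E10.5 peaks below each line, drawn to width, and the window of 100 kb in grey. The grey window holds 2 E9.5 peaks, both at Gata4, and 6 E10.5 peaks at Gata2, Gata4 and Gata5. At this scale the 148 bp gap between both peaks at the start of Gata2 is not visible.

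**Figure D2:**
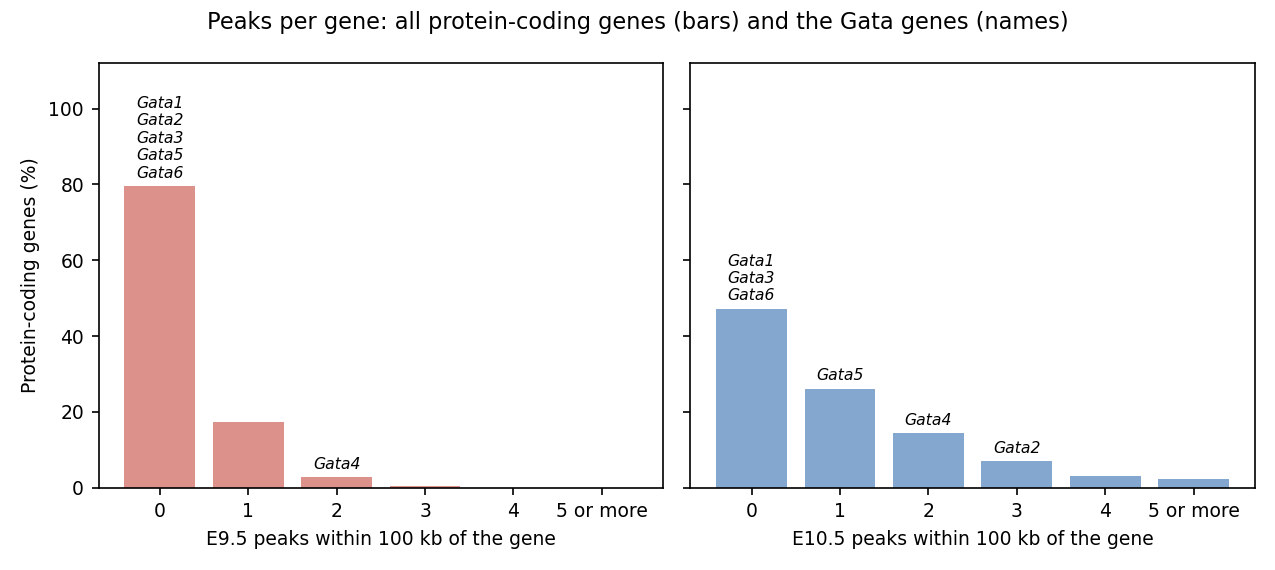
Share of all 22380 protein-coding genes (vertical axis, percent) with a given number of peaks within 100 kb of the gene (horizontal axis), for E9.5 on the left and E10.5 on the right, with the Gata genes named at their own number. Gata4 is among the few genes with 2 E9.5 peaks, and Gata2 had the most E10.5 peaks of the family with 3.

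Gata4, which encodes a factor required for heart and ventral foregut morphogenesis, held both E9.5 peaks of the family. The gene lies on the minus strand of chr14:63817759-63890529 (mouse build mm9, GENCODE vM1 annotation, ENSMUSG00000021944.8). Its better-scored E9.5 peak, chr14:63873919-63875754, is 1836 bp wide and has a score of 119, which is rank 141 of 2073 and above 93.2% of that list. The score is the authors' value, in which higher means a stronger call, and the lists do not name its unit, so scores are compared within a list only. The centre of this peak is 15.7 kb downstream of the 5′ end of the gene record, in the first intron of the short transcripts Gata4-004, Gata4-005 and Gata4-006. The transcripts with the longest coding parts, Gata4-001 (1323 coding bases), Gata4-002 (1326) and Gata4-201 (1317), start further downstream, and relative to Gata4-002 the same peak lies at -10.7 kb, where negative distances are upstream in gene direction. The peak is thus intronic by the gene record and upstream of the start of the full coding transcripts.

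The other E9.5 peak at Gata4, chr14:63925604-63926928, is intergenic and lies at -35.7 kb from the 5′ end of the gene. It is 1325 bp wide and has a score of 72.5, which is rank 431 and above 79.2% of the E9.5 list. Gata4 is the nearest protein-coding gene to both E9.5 peaks, and 49.8 kb separate them. Only 3.21% of protein-coding genes had as many as 2 E9.5 peaks within 100 kb. The E9.5 peaks of Gata4 thus stand in the upper part of their list by score, and both are wider than the list median of 1244 bp.

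At E10.5, Gata4 again had 2 peaks, neither at the E9.5 positions, and 26.8% of protein-coding genes had at least as many. The peak chr14:63869481-63871737 is 2257 bp wide and has a score of 45.5, which is rank 5539 of 6185 and above 10.4% of the E10.5 list. Its centre is 19.9 kb downstream of the 5′ end of the gene record and at -6.50 kb from the start of Gata4-002, in the same intron as the better E9.5 peak. The facing edges of these peaks are separated by 2.18 kb, so that they count as different regions. Of the 1686 E9.5 peaks that overlap no E10.5 peak, 24 (1.42%) have an E10.5 peak at this distance or closer. The remaining E10.5 peak, chr14:63828236-63830017, is 1782 bp wide and lies in an intron of Gata4, 61.4 kb from the 5′ end of the gene and 3.32 kb downstream of the start of the shorter transcript Gata4-003. Its score of 50.3 is rank 5268, above 14.8% of the list. By the 5′ ends of gene records the nearest protein-coding gene is the DNA repair gene Neil2, at -16.7 kb, although the start of Gata4-003 is closer. Both E10.5 peaks at Gata4 were therefore in the lowest part of their list by score and narrower than its median of 2552 bp. Of the 4 Gata4 peaks, 0 shared bases with the other list. Most peaks of either list share none, since only 18.7% of all E9.5 peaks and 6.26% of all E10.5 peaks overlap the other list.

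Sequence from both E9.5 peaks of Gata4 and from the E10.5 peak beside one of them is shown, because these neighbouring but separate regions are the closest approach of the stages at a Gata gene. For each peak the SMAD-binding letters nearest its centre were taken. Each is 30 bases of the plus strand of mm9, 5′ to 3′, with the match in capitals. The letters are CAGAC, the SMAD box (GTCTG where it lies on the minus strand), and GGCGCC, the GC-rich form that BMP-responsive SMADs also bind.
Gata4 E9.5 intronic peak, SMAD box, chr14:63874754-63874783: ggtgggagggcgCAGACtcgccggcgctcg
Gata4 E9.5 intronic peak, GC-rich form, chr14:63874847-63874876: aaggccgagcctGGCGCCccgctcgccggc
Gata4 E9.5 upstream peak, SMAD box, chr14:63926166-63926195: acccgtagccacCAGACgtgtcttttggtt
Gata4 E10.5 intronic peak near it, SMAD box, chr14:63870648-63870677: tgcaaaaacagcGTCTGaactagagcttgg
Gata4 E10.5 intronic peak near it, GC-rich form, chr14:63870575-63870604: gacgcccaagtaGGCGCCgcgacttggcgt
In genome direction, the E9.5 intronic matches lie -68 bp (SMAD box) and 25 bp (GC-rich form) from the peak centre, and those of the neighbouring E10.5 peak lie 53 bp and -20 bp from its centre. Both intronic regions thus hold a SMAD box and a GC-rich form within 150 bp of their centre. The upstream E9.5 peak has its nearest SMAD box at -86 bp and no GC-rich form.

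Gata2, which encodes a factor of blood stem and progenitor cells and of endothelium, had 3 E10.5 peaks, the largest number in the family, and no E9.5 peak within 100 kb. Of protein-coding genes, 12.4% had at least 3 E10.5 peaks, and 38.2% had, like Gata2 and Gata5, peaks of the later stage only. The gene lies on the plus strand of chr6:88143885-88157024 (ENSMUSG00000015053.8) and has 2 annotated starts, that of Gata2-202 at its 5′ end and that of Gata2-201 4.77 kb downstream, both with 1440 coding bases. The best-scored peak, chr6:88142565-88151760, covers both starts. It has a score of 115, which is rank 285 of 6185 and above 95.4% of the E10.5 list. With 9196 bp it is 3.60 times as wide as the median peak of this list and is number 93 in order of width. Its centre is 3.28 kb downstream of the first start and between both starts.

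The next peak at Gata2, chr6:88137794-88142416, ends 148 bp before the one at the starts and covers 4623 bp of intergenic sequence, with its centre at -3.78 kb from the gene. Its score of 98.6 is rank 549, above 91.1% of the list. A gap of this size or smaller was found between 31 of the 6165 pairs of neighbouring E10.5 peaks on the same chromosome (0.503%). Both peaks together span 14.0 kb around the start of Gata2. The E9.5 list has no peak over this span, and its nearest peak is 97.3 kb from the wide peak. The region around the start of Gata2 thus held well-scored and wide peaks in the E10.5 list, of which 1 covers the starts, and none in the E9.5 list. This difference was not tested, since each stage has a single list.

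The third E10.5 peak in the window of Gata2, chr6:88224100-88229981, is 83.2 kb downstream, in an intron of Eefsec, the gene of an elongation factor for selenoproteins. It is 5882 bp wide, and its score of 37.9 is rank 5959, above only 3.61% of the list. The nearest protein-coding start to it is not Gata2 but that of the chaperone gene Dnajb8, 54.8 kb away. An E9.5 peak just outside the window, chr6:88249064-88250246, lies in an intron of Eefsec as well, 106 kb downstream of the 5′ end of Gata2, with a score of 52.5 (rank 1390). These peaks of the different stages are separated by 19.1 kb.

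**Figure D3:**
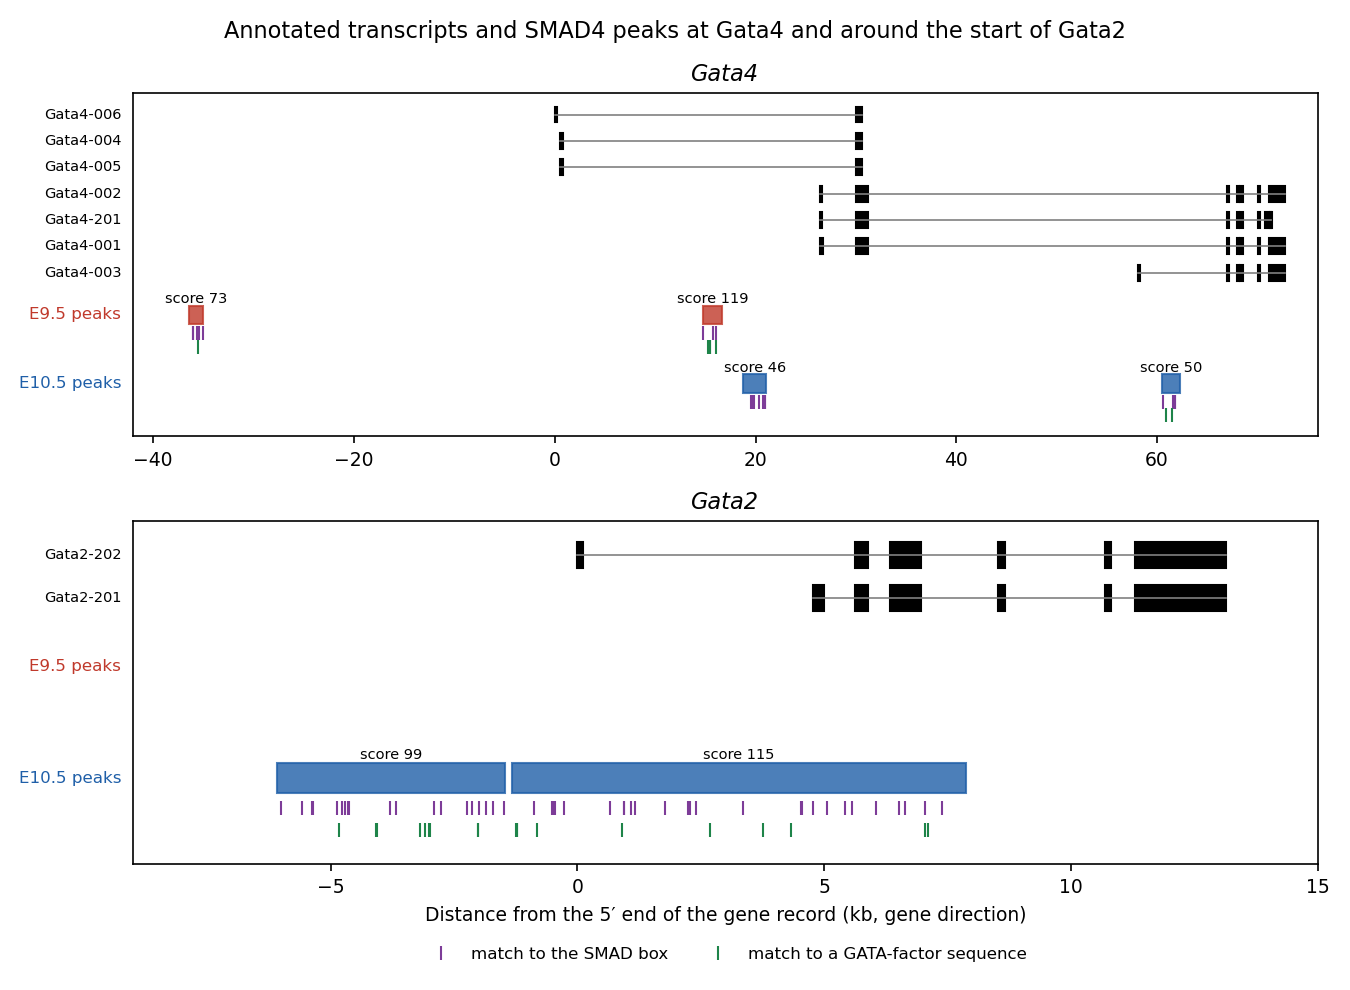
Annotated transcripts (exons as black boxes) and SMAD4 peaks at Gata4 (top) and around the start of Gata2 (bottom), by distance in kb from the 5′ end of the gene record, with the score above each peak. Purple ticks mark matches to the SMAD box and green ticks matches to a GATA-factor sequence. Peaks of both stages lie side by side at Gata4, in the intron before the full coding transcripts, and at Gata2 the peak of 9196 bp covers both starts.

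For both well-scored peaks at the start of Gata2, the SMAD box nearest the centre is shown first, as for Gata4, followed by a longer SMAD core (CAGACC) of the upstream peak and a GC-rich form of the wide peak (plus strand of mm9, 30 bases, match in capitals). The nearest longer SMAD core (CAGACC) of the wide peak lies -1012 bp from its centre, and the upstream peak holds 0 matches to the GC-rich form.
Gata2 E10.5 upstream peak, SMAD box, chr6:88140082-88140111: gtccaacccagaGTCTGcacaacacaggct
Gata2 E10.5 peak at the starts, SMAD box, chr6:88147230-88147259: cagggcctcggaCAGACagatggacgccag
Gata2 E10.5 upstream peak, SMAD core, chr6:88140192-88140221: cacactgtcccaCAGACCcgtgcgtgttcc
Gata2 E10.5 peak at the starts, GC-rich form, chr6:88147359-88147388: ccctcctggctgGGCGCCccccgagccgag
In genome direction, the SMAD boxes lie -9 bp (upstream peak) and 82 bp (wide peak) from the centre of their peak, the longer core lies at 102 bp and the GC-rich form at 211 bp. The upstream peak holds 11 matches to CAGACC, or 2.38 per kb, against a median of 0.686 per kb over the E10.5 list. The wide peak at the starts holds 6 such matches, or 0.652 per kb, which is close to that median. It also holds 8 of the GC-rich form GGCGCC, or 0.870 per kb, against 0.303 per kb over all peaks of the list, of which 44.0% hold the form anywhere. The wide peak is rich in GC (58.4%, higher than 82.3% of the list) and in CpG dinucleotides (4.76 per 100 bp, more than 74.9% of the list), and the part of base composition in the number of GC-rich matches was not tested.

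Gata5, which encodes an endocardial and endodermal factor, had 1 E10.5 peak and no E9.5 peak in the window. The gene lies on the minus strand of chr2:180059838-180069404 (ENSMUSG00000015627.4), and its peak, chr2:180040213-180044403, is intergenic and 27.1 kb downstream of the 5′ end, beyond the 3′ end of the gene. The peak is 4191 bp wide, with a score of 39.2 (rank 5895, above 4.62% of the list). Its nearest protein-coding start is that of BC066135, at -17.7 kb from it. The peak contains 12 SMAD boxes, or 2.86 per kb, against a median of 2.74 per kb in the E10.5 list, and none of them within 150 bp of the centre. The match nearest the centre, -302 bp from it in genome direction, is shown because this is the single peak of Gata5.
Gata5 E10.5 peak, SMAD box, chr2:180041992-180042021: gcaggacctcatCAGACtgtgacatccttt
The closest E9.5 peak to Gata5 is 194 kb from its 5′ end.

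Gata6, the family member with a known function in the anterior limb bud, had no peak of either stage within 100 kb. It lies on the plus strand of chr18:11052508-11085633 (ENSMUSG00000005836.8), with 1 annotated transcript, in a stretch without other protein-coding starts for 327 kb upstream and 739 kb downstream. The nearest peaks were a pair of intergenic E9.5 peaks downstream of the gene. One, at chr18:11225736-11227054, is 174 kb from the 5′ end, with a score of 55.7 (rank 1065), and the other, at chr18:11239488-11240687, is 188 kb away, with a score of 68.4 (rank 520 of 2073). Gata6 is the nearest protein-coding gene to both. The nearest E10.5 peak, chr18:11368820-11370863, is 317 kb downstream, with a score of 60.3 (rank 3027), and Gata6 is again the nearest protein-coding gene. Of all protein-coding genes, 75.9% have an E10.5 peak nearer than this, and 31.1% have an E9.5 peak nearer than 174 kb. For Gata6, the E9.5 list came closer than the E10.5 list, although it has fewer peaks.

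Gata3, a factor of T cells, the inner ear and the nephric duct, likewise had no peak in the window. It lies on the minus strand of chr2:9778705-9811661 (ENSMUSG00000015619.9). Its nearest E10.5 peak is at -158 kb and covers the start of the general transcription factor gene Taf3, with the peak centre in a coding exon. The nearest E9.5 peak to Gata3 is 509 kb away. Among protein-coding genes, 61.1% had a nearer E9.5 peak and 62.7% a nearer E10.5 peak.

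Gata1, the erythroid and megakaryocyte factor, lies on the minus strand of chrX:7536386-7555197 (ENSMUSG00000031162.8) and also had no peak within 100 kb, although 11 other protein-coding genes start in its window (median over protein-coding genes, 3). The nearest E10.5 peak is at -167 kb, at Rbm3, an RNA-binding protein gene, and the nearest E9.5 peak is 4099 kb away, farther than for 96.1% of protein-coding genes. Of the 932 protein-coding genes of the X chromosome, 30 (3.22%) had a peak of the earlier stage within 100 kb and 138 (14.8%) one of the later stage, both below the shares over all chromosomes given above.

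**Figure D4:**
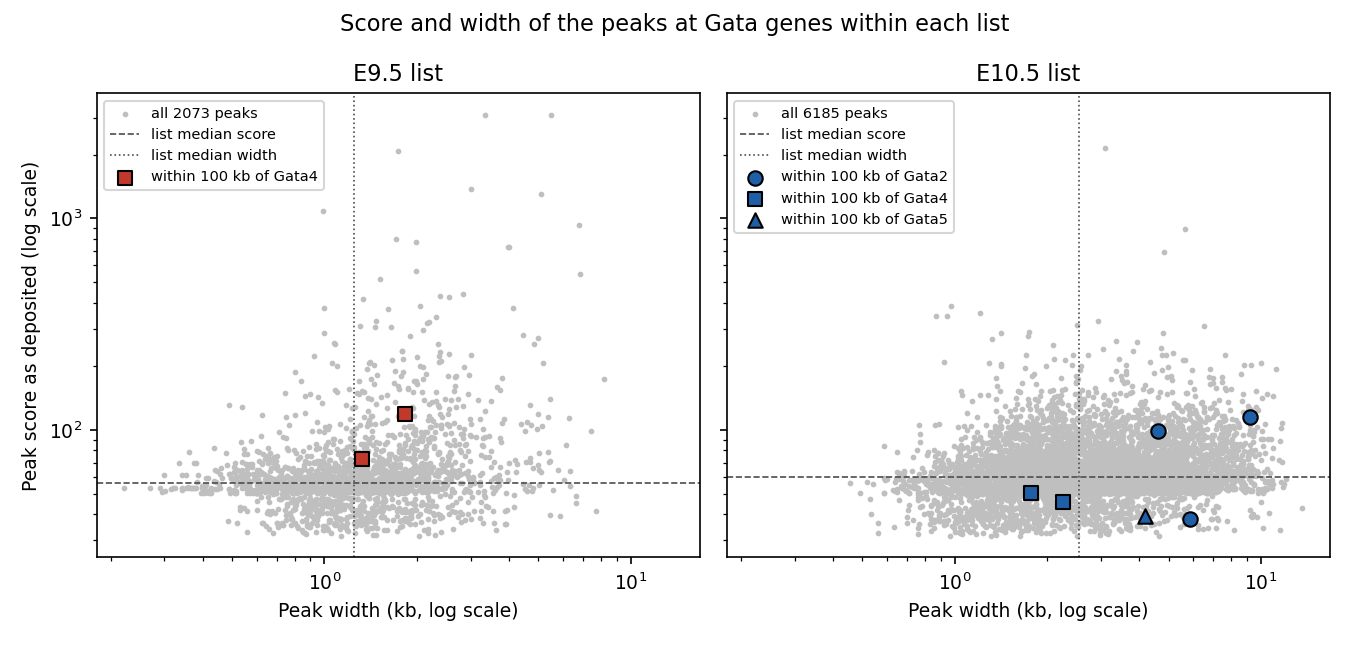
Score (vertical axis, as deposited, log scale) against width (horizontal axis, kb, log scale) of all peaks of the E9.5 list (left) and the E10.5 list (right), with the peaks within 100 kb of Gata4, Gata2 and Gata5 marked and the list medians as lines. Both E9.5 peaks of Gata4 lie above the median score of 56.3, and of the 6 E10.5 peaks only those at the start of Gata2 lie above the median of 59.8.

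Across the family the 8 peaks fell apart by score. The E9.5 peaks at Gata4 (scores 119 and 72.5) and the E10.5 peaks at the start of Gata2 (115 and 98.6) were above the median of their list. The other 4 E10.5 peaks, with scores from 37.9 to 50.3, were all in the lowest 15% of theirs. By the 5′ ends of gene records, the nearest protein-coding gene of 3 of these 4 peaks is not a Gata gene, but for 1 of the 3, at Gata4, the start of Gata4-003 is closer.

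The peaks were also searched for the sequences that GATA factors recognise, since several of these genes are known to be controlled by GATA factors themselves. The letters searched were AGATAA or TGATAA, and AGATAG or TGATAG, on both strands in 300 bp around each centre, and a match is a description rather than a site. Among the E9.5 peaks 0 of 2 had a match, against 26.0% of that list, and at E10.5 these were 2 of 6, against 24.2%. With 500 bp around the centre, both E9.5 peaks had a match (41.5% of the list), so that the 0 rests on the narrower search. The E10.5 matches of the 300 bp search were in the Gata4 peak 61.4 kb from the 5′ end (nearest at -94 bp) and in the Gata2 peak within Eefsec (12 bp). Windows with the SMAD box CAGAC numbered 2 of 2 for the earlier stage (60.6% of the list) and 4 of 6 for the later stage (53.2%). CAGACC, which contains it, was present in 0 and 1 window (21.0% and 19.7% of the lists), GGCGCC in 1 and 1 (12.6% and 13.1%), and the palindrome GTCTAGAC in 0 and 0 (1.21% and 0.420%). These counts depend on the width searched. With 500 bp, GGCGCC was in 3 of the 6 E10.5 peaks (19.5% of the list), and over whole peaks CAGACC was in 5 of 6 (79.5%) and the GATA-factor letters in 5 of 6 (90.0%).

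The better E9.5 peak at Gata4 held 4 matches to the GATA-factor letters over its whole width, or 2.18 per kb, against a list median of 1.14 per kb, and 3 SMAD boxes, or 1.63 per kb, below the list median of 2.87 per kb. It is also rich in CpG dinucleotides, with 5.61 per 100 bp, more than 81.9% of the E9.5 list. Its GATA match nearest the centre is followed directly by another GATA core and is shown for that reason.
Gata4 E9.5 intronic peak, GATA-factor letters, chr14:63875015-63875044: gtcacagatgacAGATAAgataggccggcc
This match lies 193 bp from the peak centre in genome direction. The E10.5 peak next to it had 0 matches to the GATA-factor letters over 2257 bp and 7 SMAD boxes, or 3.10 per kb. Over their whole width the adjacent intronic regions thus differ in these letters, although the counts are small. In the 300 bp around the centre they do not differ, with 0 matches to the GATA-factor letters and 1 SMAD box in each.

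Genes with the same numbers of peaks and pairs were then sought among all protein-coding genes. As likeness, the differences in the numbers of E9.5 peaks, E10.5 peaks and pairs within 100 kb were summed, and ties were ordered by the difference in the best score's percentile, over the 2 lists only. For Gata4, 60 other genes had the same numbers (2, 2 and 0), and the nearest were Zfp287, Rhob and Creb3l2, with percentile differences of 21.4, 25.6 and 36.8 summed over the lists. For Gata2, 1068 genes had the same numbers (0, 3 and 0), with Ccr7, Krt25 and Fxyd4 nearest (0.0162, 0.0162 and 0.0808). Ccr7 and Krt25 both lie on chromosome 11, and whether they count the same peaks was not examined. Gata5 shared its numbers with 4356 genes, and 4 of them tied in all measures, so that none is singled out as similar. Among the tied genes, BC066135, Cables2 and Gm14318 start within 100 kb of Gata5 and count the same peak. Gata1, Gata3 and Gata6 belong to the 41.3% of protein-coding genes with no peak of either stage in the window.

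Genes related to the family, either known partners of GATA factors or other genes with a GATA-type zinc finger, were examined in the same way. Of 31 such genes, 10 had a peak of the earlier stage within 100 kb (20.5% of protein-coding genes), 23 had one of the later stage (52.9%), and 3 had an overlapping pair (5.51%). With each peak assigned to its nearest protein-coding gene only, 5 and 12 of the 31 genes had a peak (background 6.74% and 20.3%), and within 10 kb 1 and 7 (3.59% and 16.6%). A score of 100 or more left 1 and 5 (3.03% and 8.76%), a window of 50 kb left 6 with a peak of the earlier stage (11.4%), and the later list cut to the length of the earlier one left 13 (28.0%). Among the FOG cofactors, which bind GATA zinc fingers, both Zfpm1 and Zfpm2 had 1 E10.5 peak and no E9.5 peak. In Zfpm2 the E10.5 peak is 0.3 kb from the 5′ end of the gene, with a score of 63.4. Among 10 partners in blood and endothelium, 4 had a peak of the earlier and 9 one of the later stage (median 0 and 1 peak per gene), where the background is again 20.5% and 52.9%. Among 10 partners in heart and endoderm, 3 and 6 had such peaks (median 0 and 1). Among 9 other genes with a GATA-type zinc finger, 3 and 6 had a peak (median 0 and 2), against the same background.

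Overlapping pairs were found within 100 kb of Gatad2b, Lyl1 and Mef2c. They are listed by distance alone, so that another gene may start nearer to a pair. Gatad2b, a subunit of the NuRD chromatin complex, had 2 pairs. The stronger of them, chr3:90096351-90098342 at E9.5 and chr3:90096257-90098367 at E10.5, lies at -48.2 kb and had ranks 12 and 29 (scores 562 and 218). The pair further upstream, with the E9.5 peak chr3:90057832-90059152, had ranks 93 and 1104. At Lyl1, a blood bHLH factor, the pair lies at -45.1 kb (E9.5 peak chr8:87179306-87181143, ranks 1615 and 5237). At Mef2c, a MADS-box factor of heart and muscle, it lies 14.2 kb downstream of the 5′ end (E9.5 peak chr13:83656659-83657846, ranks 1583 and 3902).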

How the data were processed

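Peak lists deposited by the authors were used as they are. According to the study's methods, reads were trimmed to a common length and mapped to mm9 with Bowtie 1.1.0 (unique matches). Peaks were called per replicate with MACS 1.4 against the input of the same sample, and MSPC kept regions found in both replicates of a stage, each with its best MACS p-value. The deposited score of a peak is the authors' value and its unit is not named in the lists. It was used for ranks within a list. Deeper or better enriched libraries give more, wider and higher-scored peaks. Input samples have no values of their own here.

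Groups (stage, and ChIP or input) were read from the sample titles. Gene 5′ ends came from GENCODE vM1 on NCBIM37 (mm9), the build of the lists. Coordinates are 1-based. Positive distances lie downstream in gene direction. Peaks within 100 kb were counted at all 22380 protein-coding genes, which gave the background shares. Sequences were read from NCBIM37, and letters were searched in 300 bp around the centre, since the lists give no summits. Spi1 was found as Sfpi1. Python 3.11.15, NumPy 2.4.6, pandas 2.3.3 and Matplotlib 3.10.9 were used, and counting was checked on made-up peaks. The rule for named items took every peak at the 6 genes, partners with an overlapping pair, and up to 3 most similar genes. Members and lists were chosen with earlier results of these data known. Alternatives covered the window, start site, peak position, score minimum, list length, merging, assignment, overlap and searched width.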

Additional observations from a re-analysis of the deposited data

How the results depend on the processing

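The count of 0 overlapping pairs was the same under all alternatives tried, including peaks up to 1 kb apart (background 5.67% of genes) and a window of 200 kb (9.85%). The family totals of peaks and of genes with a peak stayed within 1.5 times the main value with any transcript start, with peak edges, with merged neighbours and in a window of 50 kb, although at 50 kb the E10.5 peaks went from 2 to 1 at Gata4 and from 3 to 2 at Gata2, and the background to 11.4% and 37.7%. With a window of 10 kb, 0 E9.5 and 2 E10.5 peaks were left, at 0 and 1 Gata gene (background 3.59% and 16.6% of protein-coding genes), and with 200 kb there were 6 and 14, at 4 and 5 genes (background 34.4% and 67.5%). With a score of 100 or more, 1 E9.5 and 1 E10.5 peak were left, each at 1 gene (background 3.03% and 8.76%). A score of 50 or more left 3 E10.5 peaks, at 2 genes (background 50.1% of genes), an E10.5 list cut to the length of the E9.5 list left 2, at 1 gene (background 28.0%), and assignment to the nearest protein-coding gene left 3, at 2 genes (background 20.3%). Depth is unknown and limits what a missing peak can show. No paired analysis was possible because the authors merged the replicates, and none could be left out.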

Other observations

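Beyond the window of 100 kb, 1 region near the family was called at both stages within 500 kb, and it belongs to another gene. It lies at Taf4a, which encodes a subunit of the general transcription factor TFIID, where chr2:179708967-179712232 of the earlier list scored 85.2 (rank 291) and chr2:179709114-179712275 of the later list scored 79.0 (rank 1211), 359 kb downstream of the 5′ end of Gata5. A well-scored E9.5 peak, chr14:63673226-63675773 (score 104, rank 193 of 2073), lies 216 kb downstream of the 5′ end of Gata4. Its centre is in an intron of the defensin gene Defb42, and it covers the start of the transcript Defb42-004. At Gata2, the E10.5 peak just outside the window on the upstream side, chr6:88034078-88035249 (score 89.3, rank 798), covers the start of the ribophorin gene Rpn1. The centre of this peak lies in a coding exon of Rpn1.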
